A study of Mus musculus with 4 samples.

Results

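The PGC-1 coactivators (Ppargc1a, Ppargc1b and Pprc1), the estrogen-related receptors (Esrra, Esrrb and Esrrg) and the corepressor Nrip1 were followed in fat cells grown from Lgr4 mutant and wild-type mice. Every probe set whose platform annotation named only 1 of these 7 genes was taken, weak ones included, which gave 21 of the 34945 probe sets naming 1 gene. Ppargc1a had 5 probe sets, Ppargc1b and Pprc1 had 1 each, Esrra had 2, Esrrb and Esrrg had 3 each and Nrip1 had 6. RNA came from cultures of the stromal vascular fraction, the non-adipocyte cells of adipose tissue, taken from epididymal fat of 4-month-old male mice that were homozygous for an Lgr4 mutation (2 arrays) or wild-type (2 arrays). Lgr4 encodes a receptor for R-spondins, and the design asked whether its mutation favours conversion of these cells into brown-like adipocytes. The labels do not state what kind of mutation it is. Both genotypes received the same agents: growth medium with fetal bovine serum (10%) and basic FGF (10 ng/ml), then 48 h with insulin (5 µg/ml), the phosphodiesterase inhibitor isobutylmethylxanthine (0.5 mM), dexamethasone (1 µM), T3 (50 nM) and troglitazone (5 µM), and 6 further days with insulin, T3 and troglitazone. Troglitazone activates Pparg, a transcription factor that the PGC-1 proteins bind, and isobutylmethylxanthine raises cAMP, a known inducer of Ppargc1a.

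PGC-1 proteins do not bind DNA themselves. They are recruited by nuclear receptors and other transcription factors, among them the estrogen-related receptors (ERRs), and in brown fat and muscle they raise transcription of genes of the respiratory chain, the citric acid cycle and fatty acid oxidation. ERRs are orphan receptors whose activity is set largely by the coactivators and corepressors bound to them. Nrip1, also called RIP140, is a corepressor of nuclear receptors in fat and is known for holding down Ucp1 and oxidative genes.

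Values are log2 signals made by RMA, a method that corrects background, equalises the arrays and summarises the probes of each probe set, so 1 unit is a 2-fold difference in signal. A log2 signal of 6.13, the 40th percentile of mean signal over all probe sets other than controls, serves as a mark of weak signal. Differences are mutant minus wild type, tested with limma and adjusted by the Benjamini-Hochberg method over all 34945 probe sets, with 0.05 as the threshold. The arrays of a genotype were close, with a correlation across probe sets of 0.998 in the mutant pair and 0.995 in the wild-type pair, against 0.980 to 0.985 between genotypes. The main Lgr4 probe set read 6.18 and 6.09 on the mutant arrays and 8.65 and 8.20 on the wild-type arrays (log2 difference -2.29, SE 0.15, adjusted p = 6.65e-05), and a second, weak one read 5.37 and 5.31 in the mutant and 5.28 and 5.23 in wild type. Of all probe sets tested, 5420 (15.5%) passed, 2081 higher (5.96%) and 3339 lower (9.56%) in the mutant. The excess of lower calls turned round without mutant replicate 1 (795 higher, 539 lower) and without mutant replicate 2 (908 higher, 729 lower). Every fit without 1 array leaves a genotype with a lone array, which is then assumed to vary like the pair of the other genotype.

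Ppargc1a and Ppargc1b rose several-fold in the mutant cultures. Esrra rose slightly at 1 of its 2 probe sets, with a call close to the threshold. Nrip1 rose at some of its probe sets, while no probe set of Pprc1, Esrrb or Esrrg passed. In all, 9 of the 21 probe sets passed and all 9 were higher, against 5.96% of all probe sets, but 5 of the 9 belong to Ppargc1a and measure the same gene. By the brightest probe set of each gene, 3 of the 7 genes were higher (Ppargc1a, Ppargc1b and Esrra), against 6.78% of all genes measured that way. The values of the genotypes did not overlap in 17 of the 21 probe sets, against 59.5% of all probe sets. In 16 of the 21 they did not overlap and the mutant was the higher one, against 27.9% of all probe sets. Of the probe sets without overlap, 5 belong to Ppargc1a, 4 to Nrip1 and 3 to Esrrb, so they do not count as separate genes.

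**Figure D1:**
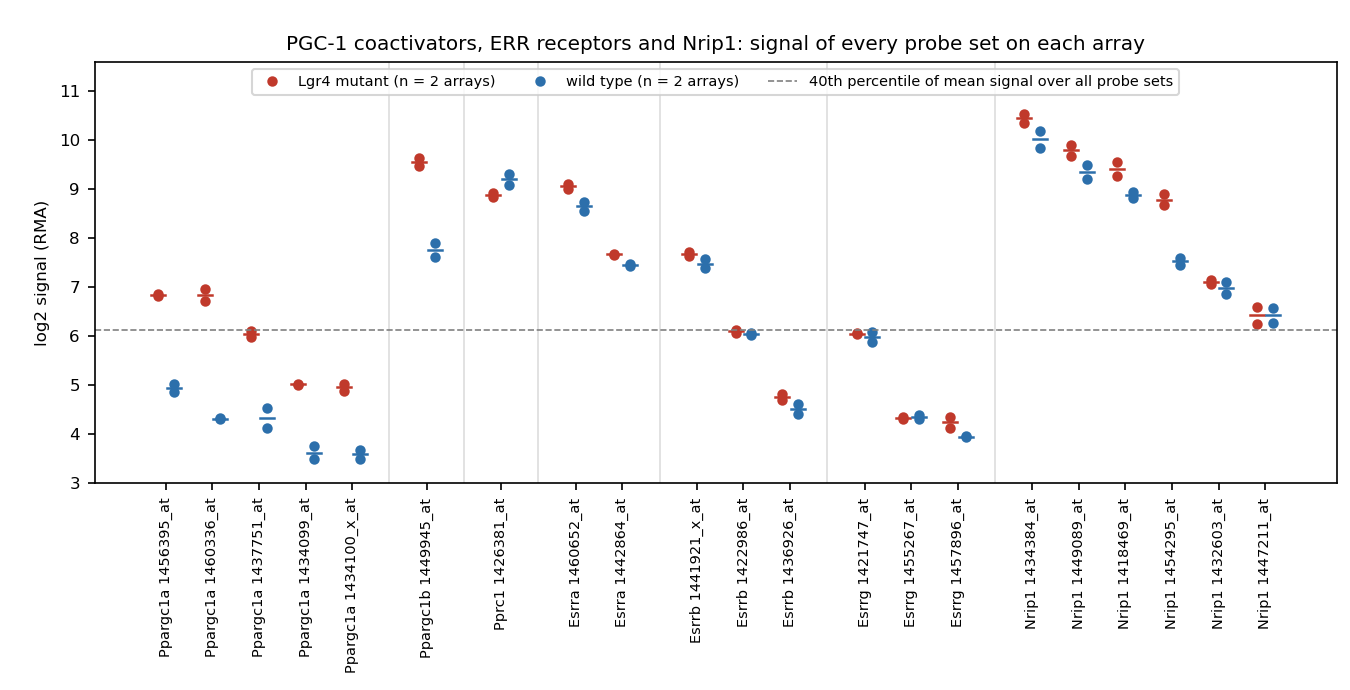
Log2 signal of each of the 21 probe sets, with the Lgr4 mutant arrays (red, left) beside the wild-type arrays (blue, right), a point for each array and a short line at each mean. The dashed line marks a log2 signal of 6.13; all wild-type values of Ppargc1a lie below it, whereas 2 of its probe sets have both mutant values above it.

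Ppargc1a, PGC-1 alpha, is the coactivator that cold and cAMP induce in brown fat. Its brightest probe set, 1456395_at, read 6.86 and 6.83 on the mutant arrays and 4.85 and 5.02 on the wild-type arrays. Both mutant values lay above the mark of weak signal and both wild-type values below it, with a gap of 1.81 between the nearest arrays of the genotypes. The log2 difference was 1.91 (SE 0.11, 95% interval 1.66 to 2.15, adjusted p = 3.08e-05), or 3.75-fold.

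The other probe sets of Ppargc1a went the same way with different sizes. Probe set 1460336_at read 6.96 and 6.72 in the mutant and 4.32 and 4.31 in wild type, a difference of 2.53 (SE 0.11, adjusted p = 1.25e-05) or 5.77-fold. Its wild-type values were far below the mark of weak signal, so this fold is not exact. Probe set 1437751_at read 6.10 and 5.99 in the mutant and 4.52 and 4.13 in wild type, a difference of 1.72. Here all 4 values, the mutant ones included, lay below the mark of weak signal. The weakest pair, 1434099_at and 1434100_x_at, is annotated with the same transcript record and so does not give independent evidence. The first read 5.01 and 5.02 in the mutant and 3.75 and 3.49 in wild type (difference 1.39), and the second read 5.03 and 4.87 in the mutant and 3.50 and 3.67 in wild type (difference 1.37). Adjusted p for these last 3 lay between 0.000228 and 0.000251, and the arrays of the genotypes did not overlap in any of the 5 probe sets.

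All 5 probe sets of Ppargc1a averaged below 6.13 over the 4 arrays, where RMA compresses differences, so the size of the rise is less certain than its direction. Among all probe sets below that mark, 2.27% passed as higher. With any 1 of the 4 arrays left out, and so a lone array in that genotype, the 5 differences ran from 1.26 to 2.65 and were past the threshold.

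Ppargc1b, PGC-1 beta, is a close relative of PGC-1 alpha that binds ERRs and is less responsive to cold. Its only probe set, 1449945_at, read 9.63 and 9.47 in the mutant and 7.91 and 7.61 in wild type. All 4 values lay well above the mark of weak signal, and the genotypes were 1.56 apart at their nearest arrays. The difference was 1.79 (SE 0.13, 95% interval 1.49 to 2.09, adjusted p = 0.000108), or 3.46-fold. Leaving out any array gave 1.64 to 1.94, all past the threshold. The mean was 9.55 ± 0.12 in the mutant and 7.76 ± 0.21 in wild type (SD, n = 2 each).

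Pprc1, the PGC-1-related coactivator, is expressed in many tissues and is known to be induced when cells enter the cell cycle. Its probe set read 8.92 and 8.85 in the mutant and 9.09 and 9.32 in wild type. Both mutant values were the lower ones. The difference of -0.32 did not pass (SE 0.11, 95% interval -0.58 to -0.05 before adjustment, adjusted p = 0.104), and it passed without wild-type replicate 1 (-0.43, adjusted p = 0.0383). The intervals of Ppargc1a and Ppargc1b lay entirely above that of Pprc1; the difference between the genes was not tested.

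The promoters of Ppargc1a and Esrra are shown because their regulators were searched for by sequence. They are the coactivator and the receptor with a probe set past the threshold and a window to search. The Esrra call lay close to the threshold. Windows of 300 bases, 250 before and 50 from the annotated start site, came from RefSeq (build GRCm38.p6) and were matched for 6 of the 7 genes, 11 windows in all, Ppargc1b being the other. Capitals mark a match to any searched motif on either strand.
Ppargc1a, chr5:51567676-51567975, minus strand: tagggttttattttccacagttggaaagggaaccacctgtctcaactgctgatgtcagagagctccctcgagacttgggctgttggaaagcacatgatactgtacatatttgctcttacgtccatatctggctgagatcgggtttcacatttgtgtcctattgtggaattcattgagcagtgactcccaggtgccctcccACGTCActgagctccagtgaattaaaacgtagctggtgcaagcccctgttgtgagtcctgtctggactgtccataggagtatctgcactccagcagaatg
Esrra, chr19:6921759-6922058, minus strand: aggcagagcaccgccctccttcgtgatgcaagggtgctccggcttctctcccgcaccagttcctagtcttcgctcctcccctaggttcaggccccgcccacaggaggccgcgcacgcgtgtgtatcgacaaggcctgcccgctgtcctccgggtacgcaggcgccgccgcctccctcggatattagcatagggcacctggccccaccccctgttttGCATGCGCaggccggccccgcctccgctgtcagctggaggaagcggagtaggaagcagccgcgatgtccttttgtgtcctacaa
The motifs were the ERR element TCAAGGTCA, its core AGGTCA (shared by many nuclear receptors and contained in the ERR element), the cAMP response element TGACGTCA, its core TGACGT (contained in the full element), the NRF-1 core GCATGCGC and the Ets core CCGGAAG. The NRF-1 core was shortened to these letters after the windows had been searched with a longer form that none of them held. The only match in the Ppargc1a window was the cAMP core TGACGT on the opposite strand. It is printed as ACGTCA, with the leftmost printed base at position -50 from the start site. Of the 32851 windows of all genes, 7.51% hold this core. The only match in the Esrra window was the NRF-1 core at position -34, which 2.71% of all windows hold, and that window was richer in G and C (66.0%) than the Ppargc1a window (48.7%). The Pprc1 window held AGGTCA, which 16.3% of all windows hold, and the other 8 held no match. TCAAGGTCA, which 0.423% of all windows hold, was in none of the 11. A match or its lack describes only the letters of the window.

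Esrra, ERR alpha, is the receptor through which PGC-1 proteins reach many mitochondrial genes, and PGC-1 alpha is known to raise its transcription. Its brightest probe set, 1460652_at, read 9.11 and 9.01 in the mutant and 8.57 and 8.74 in wild type. The genotypes did not overlap, with a gap of 0.27 between the nearest arrays. The difference was 0.40 (SE 0.11, 95% interval 0.15 to 0.65, adjusted p = 0.0437), or 1.32-fold, and the call lay close to the threshold. Leaving out wild-type replicate 1 (0.31, adjusted p = 0.0984), mutant replicate 1 (0.35, adjusted p = 0.321) or mutant replicate 2 (0.45, adjusted p = 0.200) ended it, as did centring every array on its median signal (0.37, adjusted p = 0.0545). The other probe set, 1442864_at, read 7.65 and 7.69 in the mutant and 7.47 and 7.44 in wild type, and its difference of 0.22 did not pass (SE 0.10, adjusted p = 0.178).

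Esrrb, ERR beta, is best known from pluripotent cells and the placenta. Its brightest probe set, 1441921_x_at, read 7.64 and 7.72 in the mutant and 7.39 and 7.58 in wild type, which differed by 0.20 and did not pass (SE 0.11, 95% interval -0.06 to 0.45, adjusted p = 0.273). The other two were weak. Probe set 1422986_at read 6.12 and 6.07 in the mutant and 6.02 and 6.07 in wild type (difference 0.05), and 1436926_at read 4.81 and 4.69 in the mutant and 4.41 and 4.62 in wild type (difference 0.24, adjusted p = 0.204). In all 3 the genotypes did not overlap, but by gaps of 0.0016 to 0.074, smaller than the spacing between replicates of either genotype.

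Esrrg, ERR gamma, is a receptor of oxidative tissues such as heart and brown fat. Its 3 probe sets were under the mark of weak signal on every array. Probe set 1421747_at read 6.06 and 6.04 in the mutant and 5.89 and 6.08 in wild type (difference 0.07, SE 0.11, 95% interval -0.18 to 0.32, adjusted p = 0.726). Probe set 1455267_at read 4.35 and 4.31 in the mutant and 4.39 and 4.31 in wild type (difference -0.02, adjusted p = 0.926). The genotypes overlapped in both. Probe set 1457896_at read 4.12 and 4.36 in the mutant and 3.96 and 3.93 in wild type, without overlap, and its difference of 0.30 did not pass (SE 0.11, adjusted p = 0.122). No change of Esrrg was detected at this weak signal, which does not show that a change is absent.

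**Figure D2:**
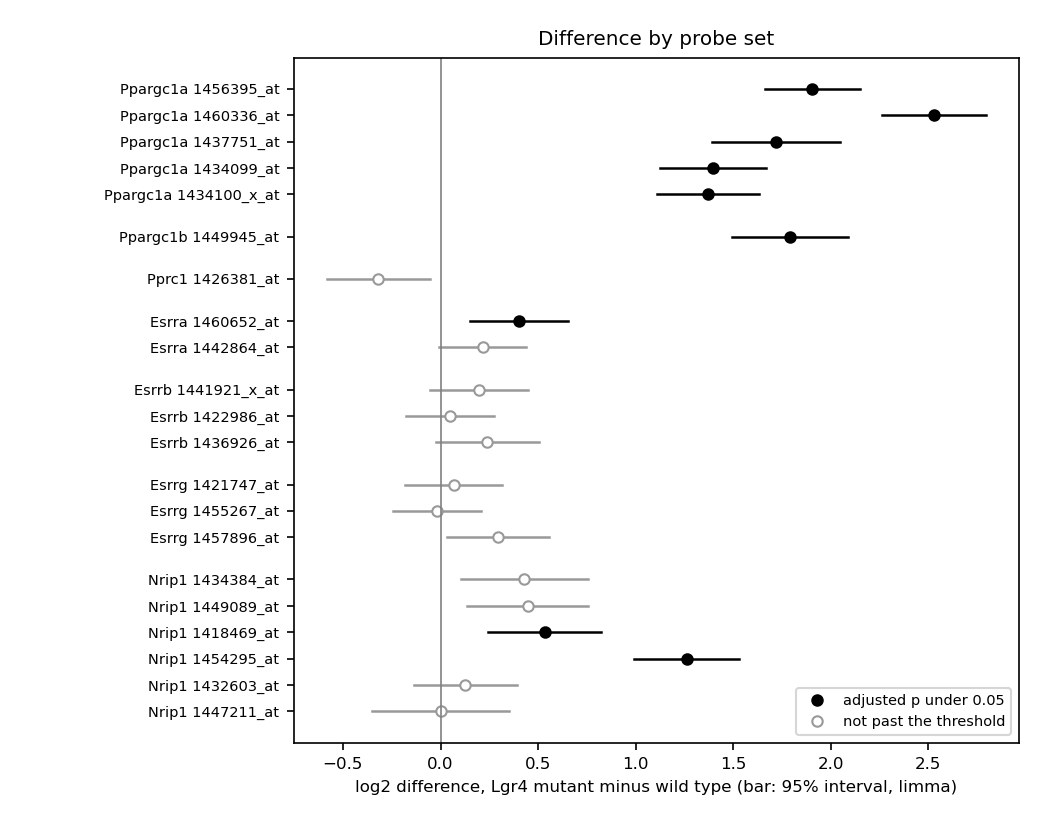
Log2 difference of each probe set, mutant minus wild type, with the 95% interval from limma before adjustment; filled points passed an adjusted p of 0.05 and open points did not. The 5 Ppargc1a probe sets and Ppargc1b lie between 1.37 and 2.53, the ERR probe sets between -0.02 and 0.40, and those of Nrip1 spread from 0 to 1.26.

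Nrip1, the corepressor, was measured by 6 probe sets that disagreed in size. The brightest, 1434384_at, read 10.54 and 10.36 in the mutant and 10.20 and 9.84 in wild type. The mutant arrays were the higher ones, yet the replicates of wild type were 0.36 apart and the difference of 0.43 did not pass (SE 0.14, 95% interval 0.10 to 0.75, adjusted p = 0.0812). It passed without wild-type replicate 1 (0.61, adjusted p = 0.0207), after another quantile normalization (0.50, adjusted p = 0.0469) and when the 6 probe sets were averaged (0.47, adjusted p = 0.0211).

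A pair of Nrip1 probe sets, 1449089_at and 1418469_at, is annotated with the gene's reference transcript. The first read 9.91 and 9.68 in the mutant and 9.49 and 9.21 in wild type (difference 0.45, adjusted p = 0.0627), and passed without wild-type replicate 1 (0.59, adjusted p = 0.0310) and after that normalization (0.53, adjusted p = 0.0327). The second read 9.56 and 9.28 in the mutant and 8.96 and 8.82 in wild type. Its difference of 0.53 passed (SE 0.12, adjusted p = 0.0263), or 1.45-fold, but not without wild-type replicate 2 (0.46, adjusted p = 0.0539), mutant replicate 1 (0.39, adjusted p = 0.259) or mutant replicate 2 (0.68, adjusted p = 0.0636). The largest Nrip1 difference was at 1454295_at, which read 8.90 and 8.67 in the mutant and 7.46 and 7.59 in wild type (1.26, SE 0.12, 95% interval 0.99 to 1.53, adjusted p = 0.000416). This was a 2.40-fold rise, and the difference was 1.15 to 1.38 and past the threshold in the fits without 1 array.

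Probe set 1432603_at carries the same transcript record in the annotation as 1454295_at, and yet read 7.07 and 7.14 in the mutant and 6.87 and 7.10 in wild type (difference 0.13, 95% interval -0.14 to 0.39, adjusted p = 0.506). The genotypes overlapped there. Within each array, 1454295_at exceeded 1432603_at by 1.83 and 1.53 in the mutant and by 0.60 and 0.49 in wild type, so the gap between the probe sets was 1.13 wider in the mutant, in both arrays. An exact two-sided permutation test gives p = 0.333, the smallest that 2 against 2 arrays allow, so it cannot decide whether the gap differs. In the other pairs that share a record the gap hardly differed between genotypes. It differed by 0.026 for 1434099_at over 1434100_x_at of Ppargc1a and by -0.089 for 1449089_at over 1418469_at of Nrip1. The last Nrip1 probe set, 1447211_at, read 6.60 and 6.26 in the mutant and 6.58 and 6.27 in wild type, with a difference of 0.00 (95% interval -0.35 to 0.35). Which transcripts of Nrip1 each probe set detects was not tested.

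Around these factors, genes reported as ERR targets rose widely, and whether ERRs had a part in this was not tested. Of the 25 on the array out of 27 listed, 20 rose, none fell and 5 did not pass, with a median difference of 0.82, against a median of 0.01 over all genes by their brightest probe set, of which 6.78% rose and 10.4% fell. Leaving out an array gave 14 to 20 called genes. Ucp1, the uncoupling protein, read 8.17 and 7.49 in the mutant and 4.99 and 5.86 in wild type (2.40, SE 0.30, adjusted p = 0.00178). The wild-type values lay below the mark of weak signal. Idh3a, a catalytic subunit of isocitrate dehydrogenase, read 13.10 and 12.96 in the mutant and 10.87 and 10.81 in wild type (2.19, SE 0.10, adjusted p = 1.41e-05). With all its probe sets averaged, the Idh3a difference was smaller (1.34). Pdk4, the kinase that turns off pyruvate dehydrogenase, read 9.57 and 9.32 in the mutant and 7.60 and 7.41 in wild type (1.94, SE 0.12). Hadha, the alpha subunit of the trifunctional protein of fatty acid oxidation, read 11.38 and 11.32 in the mutant and 9.37 and 9.88 in wild type (1.72, SE 0.16). The 5 that did not pass, named after their values were seen, were the deacetylase Sirt3 (0.30), the muscle regulator Perm1 (0.19), the adenine nucleotide carrier Slc25a4 (-0.00), the mitochondrial creatine kinase Ckmt2 (-0.01, weak on all arrays) and the fatty acid binding protein Fabp3 (-0.29).

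**Figure D3:**
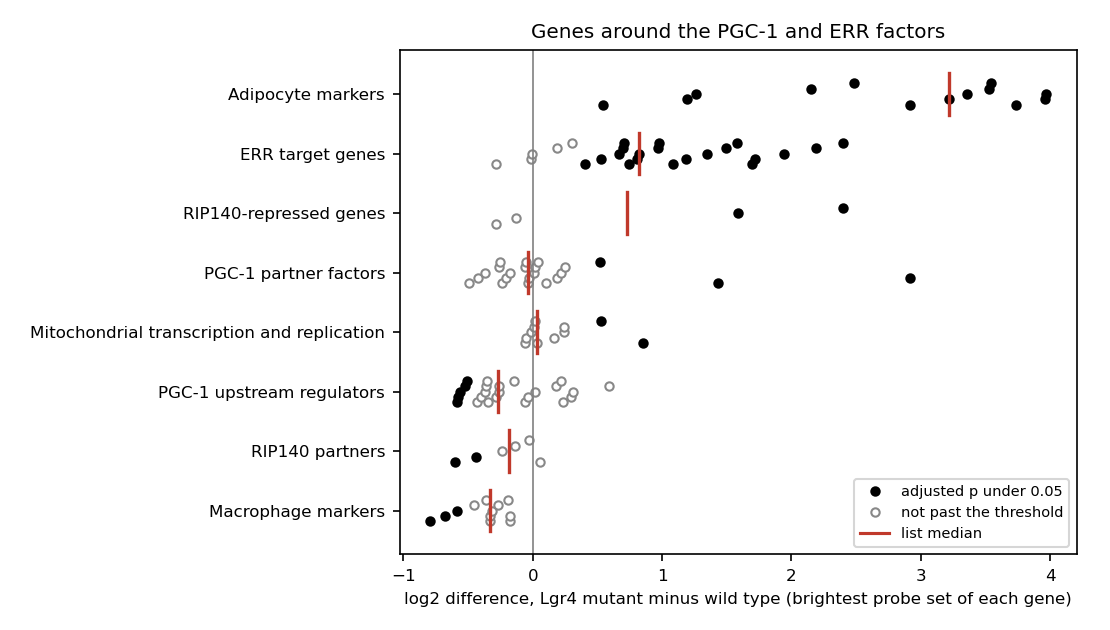
Log2 difference, mutant minus wild type, of the brightest probe set of each gene in 6 lists around the PGC-1 and ERR factors and in 2 marker lists; filled points passed an adjusted p of 0.05, and the red line is the list median. Medians run from 3.22 in the adipocyte markers and 0.82 in the ERR targets to -0.33 in the macrophage markers.

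The partner factors through which PGC-1 proteins reach DNA, together with their cofactors, mostly did not move past the test. Of 22 on the array, 3 rose, none fell and 19 did not pass, against 6.78% of all genes higher and 10.4% lower, with a median difference of -0.04. Pparg, the nuclear receptor of adipogenesis, read 10.85 and 10.82 in the mutant and 8.10 and 7.73 in wild type (2.92, SE 0.14, adjusted p = 1.41e-05). Nr1h3, the oxysterol receptor LXR alpha, read 8.92 and 8.81 in the mutant and 7.53 and 7.33 in wild type (1.44, SE 0.11, adjusted p = 0.000169). Foxo1, an insulin-regulated forkhead factor, read 9.71 and 9.63 in the mutant and 9.21 and 9.08 in wild type (0.52, SE 0.10, adjusted p = 0.0136), a call that ended without mutant replicate 1 (0.49, adjusted p = 0.167) or mutant replicate 2 (0.56, adjusted p = 0.110). Without wild-type replicate 2 the list had 9 calls, 4 higher and 5 lower, and without either mutant array it had 2.

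The genes that run mitochondrial transcription and DNA replication, which PGC-1 alpha is known to raise through the factors Nrf1 and Gabpa, were counted next. Of 11 on the array out of 12 listed, 2 rose, none fell and 9 did not pass, against 6.78% of all genes higher and 10.4% lower, with a median of 0.03. Lonp1, a protease of the mitochondrial matrix, read 10.51 and 10.48 in the mutant and 9.52 and 9.76 in wild type (0.85, SE 0.11, adjusted p = 0.00248). Tefm, a mitochondrial elongation factor, read 8.49 and 8.31 in the mutant and 8.04 and 7.70 in wild type (0.53, SE 0.14, adjusted p = 0.0385), a call lost on leaving out wild-type replicate 2 (adjusted p = 0.0669) or either mutant array (adjusted p = 0.290 for replicate 1 and 0.134 for replicate 2). Tfam, which packages mitochondrial DNA and starts its transcription, read 9.38 and 9.30 in the mutant and 9.35 and 9.42 in wild type, which differed by -0.05 and did not pass (SE 0.10, adjusted p = 0.785; named after its value was seen).

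Among proteins known to modify, induce or restrain PGC-1 alpha, 5 of the 24 on the array fell, none rose and 19 did not pass, against 10.4% of all genes lower and 6.78% higher, with a median of -0.27. Those that fell were the pocket protein Rbl1 (-0.59, SE 0.12), the ubiquitin ligase subunit Fbxw7 (-0.58, SE 0.11), the catalytic AMP-activated kinase subunit Prkaa1 (-0.57, SE 0.11), the coactivator Ncoa3 (-0.52, SE 0.10) and the CREB coactivator Crtc3 (-0.51, SE 0.10, named after its value was seen). Prkaa1, as an example, read 7.74 and 7.82 in the mutant and 8.44 and 8.26 in wild type (adjusted p = 0.0121). The other catalytic subunit listed, Prkaa2, read 7.34 and 7.27 in the mutant and 7.03 and 6.40 in wild type. Its difference of 0.59 went the opposite way and did not pass (adjusted p = 0.0742, named after its value was seen). The list had no call without mutant replicate 1 or without mutant replicate 2, where calls over all probe sets dropped to 1334 and 1637, and 17 calls (3 higher, 14 lower) without wild-type replicate 2.

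Of 6 partners of Nrip1, 2 fell, none rose and 4 did not pass, against 10.4% of all genes lower and 6.78% higher, with a median of -0.19. Ctbp2, a corepressor that Nrip1 binds, read 9.66 and 9.74 in the mutant and 10.44 and 10.17 in wild type (-0.60, SE 0.12, adjusted p = 0.0145). Dnmt1, the maintenance DNA methyltransferase, read 9.69 and 9.69 in the mutant and 10.18 and 10.08 in wild type (-0.44, SE 0.10, adjusted p = 0.0224). Both calls ended without mutant replicate 1 (-0.56 for Ctbp2 and -0.44 for Dnmt1) and without mutant replicate 2 (-0.64 and -0.44), with differences of about the same size. Of 4 measured genes that Nrip1 is known to repress, Ucp1 (2.40) and the glucose transporter Slc2a4 (1.59, SE 0.12, adjusted p = 0.000169) rose, whereas the lipid droplet protein Cidea (-0.13, weak on all arrays) and Fabp3 (-0.29) did not pass. Slc2a4 read 9.40 and 9.30 in the mutant and 7.61 and 7.90 in wild type. Ucp1 and Fabp3 also stand in the ERR list.

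Markers of fat cells differed between the same arrays, where 6.78% of all genes were higher and 10.4% lower. All 13 adipocyte markers on the array rose, with a median difference of 3.22 and a range of 0.55 to 3.97, and 10 of the 13 had a larger difference than Ppargc1b (1.79) and the brightest probe set of Ppargc1a (1.91), or 8 of 13 against its probe set with the largest difference (2.53). Their summed linear signal was 136002 and 133849 on the mutant arrays and 45674 and 43151 on the wild-type arrays. Brown adipocyte markers were divided: 5 of 10 rose (Ucp1, Elovl3, Cox8b, Cox7a1 and Otop1, named after their values were seen), while Prdm16 (0.19) and Dio2 (0.17), above the mark of weak signal in mean, and Ppara (0.25), near it, did not pass. Cidea and Zic1 lay below the mark on all arrays. Of the 5 risers, Otop1 averaged below the mark over the 4 arrays. The wild-type means of Ucp1, Elovl3 and Otop1 were below it too. Macrophage markers were high in both genotypes, with a summed linear signal of 91331 and 91747 in the mutant and 107536 and 114061 in wild type. Of these 12, 3 fell past the threshold (median -0.33), and all 12 read lower in the mutant, by a range of -0.79 to -0.18. Progenitor and fibroblast markers fell in 5 of 11 and none rose (median -0.28). Of 8 mural and smooth muscle markers 5 fell and 2 rose (median -0.60). Of 8 mesothelial and epithelial markers 1 rose, and none of 7 lymphocyte, 8 endothelial or 7 skeletal muscle markers passed. In bulk RNA a larger share of fat cells and more transcript in each fat cell cannot be told apart. The part of the cell mixture in the differences of Ppargc1a, Ppargc1b, Esrra, Nrip1 and the listed genes, ERR targets included, was not tested.

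Genes with a pattern closest to those of Ppargc1a, Ppargc1b and Esrra were sought over the 4 arrays, among 13172 or 13173 genes above the mark of weak signal. The measure was the distance between log2 values centred on each probe set's own mean. With 4 arrays in 2 genotypes this mainly finds genes with a difference of like size. Closest to Ppargc1a were Tmem120b (distance 0.058), Mrps6 (0.060), the adiponectin receptor Adipor2 (0.067), the lipogenic enzyme Acly (0.108) and the lactate receptor Hcar1 (0.112), with differences from 1.87 to 1.96. Closest to Ppargc1b were Cavin2 (0.096), the kinase Sik2 (0.105), Dmrt2 (0.118), the acyl-CoA dehydrogenase Acadl (0.128) and the lipase inhibitor G0s2 (0.129). Closest to Esrra were Mrps26 (0.024), Timm13 (0.029), Cx3cl1 (0.032), Zc3h12a (0.036) and Mrrf (0.036).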

How the data were processed

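Total RNA (500 ng) was labelled with an Affymetrix 3' kit per the labels' protocols. The authors deposited a log2 signal for each probe set, made with Partek 6.6 and RMA per the submitters' processing notes. The RMA variant is not given in the sources used here. That the scale is log2 follows from the values, which run from 2.86 to 15.2. Of 45101 probe sets, 64 controls were left out, and 34945 named 1 gene (18193 genes), 932 several and 9160 none. Symbols were updated through gene identifiers where the RefSeq table held them (204 probe sets unmatched).

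All 34945 probe sets were fitted, unfiltered, with limma 3.58.1 in R 4.3.3 (lmFit, eBayes without trend, prior degrees of freedom 5.69, residual 2), two-sided, and the code was tested on simulated data. Intervals are 95% and unadjusted. Precision is limited by the number of arrays. They are labelled biological replicates, with no word on separate animals or cultures; p-values therefore cover only the spread between these arrays, which may be technical. Members, lists and tests were chosen with earlier results of these data known, and the lists come from general knowledge. Each gene of a list is represented by its brightest probe set. Named list genes are up to 4 risers and 4 fallers past the threshold with mean signal above 6.13; others are said to be chosen later. Alternatives changed the scaling, filter, probe sets, variance model or replicate block, or left out an array.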

Additional observations from a re-analysis of the deposited data

How the results depend on the processing

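The rises of Ppargc1a and Ppargc1b kept their direction and stayed past the threshold under every alternative that could be run for them; Ppargc1a had no value with the filter on mean signal, and nor did Esrrg, because all their probe sets lay below it. Esrra did not pass after centring on the median (0.37). Nrip1 passed at its brightest probe set after a second quantile normalization (0.50), with averaged probe sets (0.47) and with the replicate block (0.43). Member probe sets past the threshold numbered 4 of 11 with the filter, 3 of 7 with the brightest probe set alone and 4 of 7 with averaged probe sets, fewer being tested in each. Partner factors had 5 calls after centring, with the filter, with brightest probe sets, with averaged probe sets and with a variance trend, 3 higher and 2 lower in each except with averaging (4 and 1). Upstream regulators had 8 calls with brightest and with averaged probe sets, 1 higher and 7 lower in each. Averaging gave 3110 calls over all genes. Esrrb probe set 1422986_at reversed after a second quantile normalization (-0.00029). Except where a line above gives fewer tested, the cause of these shifts was not tested.

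The replicate numbers are shared between genotypes, but nothing in the labels pairs them. Deviations of same-numbered arrays correlated by 0.164. With replicate number as a block, calls over all probe sets numbered 8534 and those among members 12. Pprc1 (-0.32, adjusted p = 0.0464) and Nrip1 (0.43, adjusted p = 0.00555, and 0.45 with adjusted p = 0.0036 at 1449089_at) passed in that fit. Partner factors then had 6 calls (3 higher, 3 lower) and upstream regulators 12 (1 higher, 11 lower).

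Leaving out 1 array at a time gave 1334 to 9057 calls over all probe sets, 7 to 11 among member probe sets, 2 to 9 among partner factors, 0 to 17 among upstream regulators, 14 to 20 among ERR targets, 1 to 2 in mitochondrial transcription, 0 to 2 among RIP140 partners and 2 among RIP140-repressed genes. Brightest differences ran from 1.82 to 1.99 for Ppargc1a, 1.64 to 1.94 for Ppargc1b, -0.43 to -0.20 for Pprc1, 0.31 to 0.49 for Esrra, 0.10 to 0.29 for Esrrb, -0.032 to 0.17 for Esrrg and 0.25 to 0.61 for Nrip1. Small values changed sign: Esrrg at 1421747_at (-0.032) and at 1455267_at (-0.056 to 0.020, with 0.0019 without mutant replicate 2), and Nrip1 at 1447211_at (-0.17 to 0.17, with 0.15 without wild-type replicate 1). Signal near background limits Ppargc1a in size, and Esrrg was under the mark of weak signal on every array.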
